A study of Mus musculus with 8 samples.

Results

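Basal-TAC-only sites are stretches of open chromatin that were called in the basal transient amplifying cells of growing mouse hair follicles and in none of 3 other populations of the same lineage. ATAC-seq, in which a transposase cuts accessible DNA and tags it for sequencing, was run on sorted back skin cells, with 2 samples per population and the sex of the mice mixed. The basal TACs came from anagen follicles of Lgr5-eGFP-ires-CreER mice at postnatal day 30 and were sorted as negative for GFP, CD34 and SCA1, high for integrin β1 and positive for P-cadherin. The suprabasal TACs came from anagen follicles of K14-H2BGFP mice at day 30 and were sorted as low for GFP and negative for integrin α6 and CD34. Hair germ cells and bulge stem cells came from second-telogen follicles of Lgr5-eGFP-ires-CreER mice at day 55, both positive for GFP and integrins α6 and β1, with CD34 negative in hair germ cells and positive in bulge cells. The Lgr5 promoter drives GFP and an inducible Cre in the first line, and the keratin 14 promoter drives a histone-GFP fusion in the second. Mouse line, age, hair cycle stage and sort therefore differ between populations along with cell type, and their parts in any difference cannot be told apart.

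The authors deposited 1 peak list per population, called on the pooled fragments of both samples. Overlapping peaks of the 4 lists (at least 1 bp in common) were merged into 114956 sites, with the mitochondrial and Y chromosomes left out. Of these, 16635 held a basal TAC peak and no peak of another list, which was 14.5% of all sites and 22.3% of the 74736 sites with a basal TAC peak. The members were thus chosen by measured values, namely the presence of a peak call in basal TACs and its absence in the other lists, and they were ranked on pileup, the number of fragments stacked at the summit. Nothing that follows tests that choice, and with 1 pooled list per population there is no spread between replicates. The 95% intervals given are binomial and cover counting error only. They treat sites as independent, although members often lay next to each other, as described below.

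Basal TACs are the proliferative layer of the hair bulb that lies against the dermal papilla, and their progeny leave the basement membrane to become suprabasal cells that go on to form the hair shaft and its inner sheath. WNT, BMP, hedgehog and FGF signals between papilla and matrix are known to set the pace and direction of that process. Distal open sites that are used in few cell types are often enhancers, whereas open promoters tend to be shared widely. Openness alone does not show that a site acts on the nearest gene.

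Depth bears on what absence means here. The headers gave 30824845 fragments for basal TACs, 47852893 for suprabasal TACs, 11053351 for hair germ and 24065469 for bulge, and the lists held 75652, 72153, 56548 and 62333 peaks in that order. A basal TAC peak scaled to the hair germ depth reached the 5th percentile of hair germ pileups only if its own pileup was at least 25.1, against 19.2 for bulge and 12.2 for suprabasal TACs. By that measure 10824 members (65.1%) reached that level for all 3 other lists, and are called depth-scaled members here. For the remaining members, absence from the hair germ list cannot be told apart from its lower depth. The level rests on pileup alone, and depth-scaled members went down to a −log10 q of 1.67 and a fold enrichment of 1.56. Reaching it therefore does not show that a peak would have been called at the other depth. Markers of the sorted lineage held basal TAC sites: 8 of 8 basal and outer follicle keratinocyte markers (68 sites) and 8 of 8 hair matrix markers (120 sites). Markers of other skin cells were not free of sites, with 7 of 8 melanocyte, 7 of 7 dermal, 5 of 6 immune, 5 of 5 endothelial, 5 of 6 Merkel and 5 of 5 sebaceous markers holding at least 1. The markers in these lists without a site were Tyr (melanocytes), Cd207 (Langerhans cells) and Krt20 (Merkel cells). Over all genes, 15919 of 21631 protein-coding genes had a basal TAC site, so these marker counts say little about which cells were sorted.

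Few members lay at gene starts, and the sequences of those that did show what such a start looks like. Of 16635 members, 137 (0.824%) contained an annotated start of a protein-coding gene, whereas 9706 of 58101 shared basal TAC sites (16.7%) did. Only the 17274 of 21631 protein-coding genes with a promoter window could be counted, so both shares are lower bounds. The 6 below had the highest pileup among members that held a start with a RefSeq promoter window (GRCm38.p6, the same assembly as mm10), and each sequence is the part of the member that lies up to 250 bases before the start, read 5′ to 3′ on the strand of the gene. Capitals mark matches to any of 15 short motifs searched on both strands.
Shc1: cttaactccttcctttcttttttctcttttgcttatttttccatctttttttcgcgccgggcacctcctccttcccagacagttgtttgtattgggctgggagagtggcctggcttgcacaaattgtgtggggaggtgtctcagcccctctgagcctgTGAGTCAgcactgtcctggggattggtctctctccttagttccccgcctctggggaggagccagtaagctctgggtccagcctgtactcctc
Smcp: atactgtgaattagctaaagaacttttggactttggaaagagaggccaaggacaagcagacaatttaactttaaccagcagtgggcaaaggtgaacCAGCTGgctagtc
Gpam: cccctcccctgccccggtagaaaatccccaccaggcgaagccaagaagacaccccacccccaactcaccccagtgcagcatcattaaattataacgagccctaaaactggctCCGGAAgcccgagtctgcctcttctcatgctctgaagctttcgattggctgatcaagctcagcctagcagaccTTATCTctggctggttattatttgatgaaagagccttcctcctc
Akr1c18: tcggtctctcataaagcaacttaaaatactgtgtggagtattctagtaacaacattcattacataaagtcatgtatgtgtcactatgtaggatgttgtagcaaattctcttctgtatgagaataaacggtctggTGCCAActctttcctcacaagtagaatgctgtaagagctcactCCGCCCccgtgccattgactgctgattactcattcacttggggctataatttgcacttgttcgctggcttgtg
Ppfibp2: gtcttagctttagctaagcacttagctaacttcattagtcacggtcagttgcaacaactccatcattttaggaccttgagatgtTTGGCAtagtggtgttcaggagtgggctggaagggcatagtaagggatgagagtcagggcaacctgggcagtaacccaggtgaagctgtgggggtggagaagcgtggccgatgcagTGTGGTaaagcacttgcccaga
Mylk3: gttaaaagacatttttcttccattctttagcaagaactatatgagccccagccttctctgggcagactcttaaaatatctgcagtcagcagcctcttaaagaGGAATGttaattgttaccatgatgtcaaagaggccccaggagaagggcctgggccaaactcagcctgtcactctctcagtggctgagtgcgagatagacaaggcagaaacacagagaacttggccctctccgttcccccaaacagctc

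The windows were Shc1 chr3:89421371-89421620 (plus strand), Smcp chr3:92589074-92589182 (minus strand), Gpam chr19:55127239-55127467 (minus strand), Akr1c18 chr13:4150647-4150896 (minus strand), Ppfibp2 chr7:107606622-107606843 (plus strand) and Mylk3 chr8:85365325-85365574 (minus strand). The Shc1 site, 300 bp long with a pileup of 175, carried the AP-1 motif TGANTCA, and Shc1 encodes an adaptor that couples receptor tyrosine kinases to RAS. The Smcp site had a pileup of 89 and an E-box (CAGCTG) close to the start, and Smcp encodes a capsule protein of sperm mitochondria. Gpam, an acyltransferase of triglyceride synthesis, had an ETS match (CCGGAA) and a GATA match (AGATAA) in a site of pileup 70. Akr1c18, a hydroxysteroid dehydrogenase, had an NFI match (TTGGCA) and a KLF/SP match (GGGCGG) at pileup 69. Ppfibp2, a liprin, had an NFI match and a RUNX match (TGTGGT) at pileup 69, and Mylk3, a myosin light chain kinase, had a TEAD match (GGAATG) at pileup 62. Shc1, Gpam and Ppfibp2 each had another annotated start in a site of another class, as did 29 of the 137 genes in all.

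Member promoters were poorer in CpG than shared ones. The 143 promoter windows whose start fell in a member had a median GC content of 56.0% and a median CpG ratio (observed over expected) of 0.398, against 62.0% and 0.779 for the 11945 windows at shared basal TAC sites. A CpG ratio of at least 0.6 was found in 28.7% of the member windows, 75.9% of the shared windows and 48.1% of all 21045 windows. Windows at suprabasal-TAC-only sites, at 26.5%, were close to the member windows on this measure. The KLF/SP motif GGGCGG, itself CpG-containing, was present in 31.5% of the member windows (24.0 to 39.8), 68.0% of the shared windows and 46.7% of all windows. The ETS motif CCGGAA was present in 7.69% of the member windows (3.90 to 13.3), 28.8% of the shared windows and 18.9% of all windows. Windows at the other single-population sites were also low for it, with 9.64% for suprabasal-TAC-only sites, 2 of 39 for bulge-only and 1 of 13 for hair-germ-only sites. Among windows with 45 to 55% GC, ETS matches stood in 1 of 50 member windows and 27.5% of the shared windows, and KLF/SP matches in 4 of 50 member windows and 36.8% of the shared windows. The E-box CAGCTG, which reads the same on both strands, stood in 25.9% of the member windows (18.9 to 33.9), 14.6% of the shared windows and 15.7% of all windows. Among windows with 45 to 55% GC it stood in 7 of 50 member windows, 13.4% of the shared windows and 17.3% of all windows. At 55% GC or more it stood in 24 of 78 member windows, 15.1% of the shared windows and 16.5% of all windows. Below 45% GC it stood in 6 of 15 member windows, 10.2% of the shared windows and 10.5% of all windows. Only 14 of the 74 windows at depth-scaled members held it (18.9%), and windows at suprabasal-TAC-only sites were at 23.5%. The AP-1 motif stood in 6.99% of the member windows, 4.81% of the shared windows and 7.04% of all windows, and the TCF/LEF motif CTTTGAT in 1 of the 143 member windows, 2.39% of the shared windows and 3.25% of all windows. Matches may overlap, and a match is a run of letters, not a measured binding site.

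Few members lay over microRNA genes. Of 1003 annotated hairpins, 125 lay in a basal TAC site and 8 of these in a member (6.40%). Members were 22.3% of all basal TAC sites, but that share counts sites and not hairpins. Members were also shorter, at a median of 454 bp against 1044 bp for shared sites, so the 2 shares are not on one footing. The tallest was Mir6416, in a member of pileup 174 at chr7:64249373-64250588 whose nearest protein-coding gene was Trpm1, a cation channel of melanocytes and retina. Its mature forms are given with the seed (bases 2 to 8) in capitals, beside that of miR-34a, a p53 target whose hairpin lay in a member of pileup 17.
mmu-miR-6416-5p: cUCCGUAUcaucugcucuucu
mmu-miR-6416-3p: gCAAAGAGcagcaaaaggaag
mmu-miR-34a-5p: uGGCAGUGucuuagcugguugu

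Members were lower and narrower than the sites basal TACs shared with other populations. Their median pileup was 32 (quartiles 22 and 49), against 63 (35 and 116) for the 58101 shared basal TAC sites. Fold enrichment over the local background, the authors' value for each peak, had a median of 5.18 in members and 7.30 in shared sites. The median −log10 q was 12.8 in members and 33.0 in shared sites, and 60.9% of members against 85.0% of shared sites reached 10. The median length was 454 bp for members and 776 bp for the basal TAC peaks of shared sites. Suprabasal-TAC-only, hair-germ-only and bulge-only sites were shorter still, at medians of 370, 344 and 372 bp. The shortest site was 256 bp in members and 187, 233 and 224 bp in those classes, which equals the fragment size in each header. Depth differed as well, so lengths of different lists are not on one footing. Every member was a single basal TAC peak. A pileup over 100 was seen in 704 members (4.23%) and in 30.6% of shared sites, so the tall members described below are a small upper tail.

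**Figure D1:**
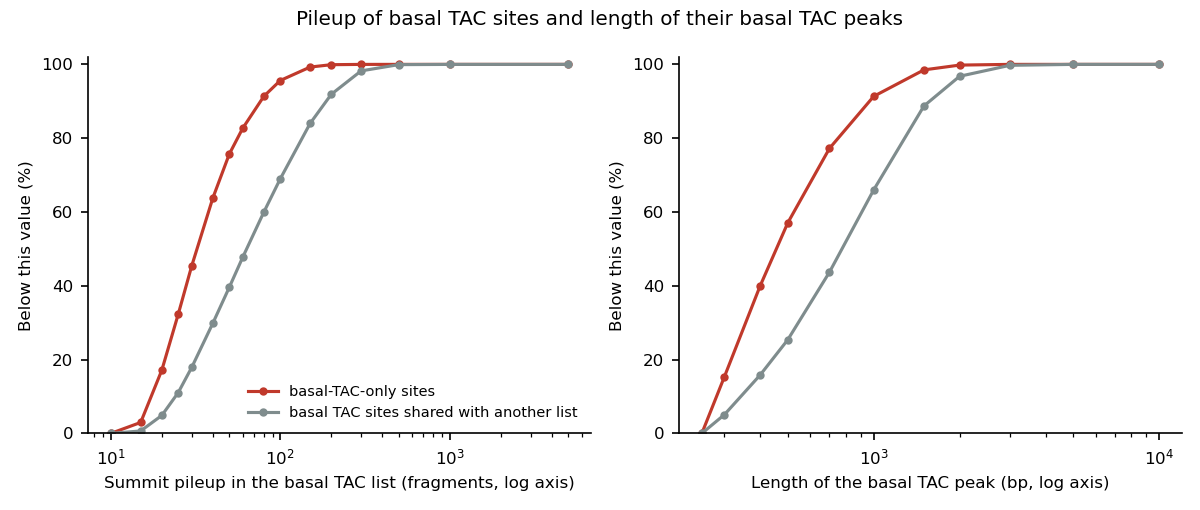
Cumulative share of basal-TAC-only sites (red) and of basal TAC sites shared with another list (grey) below a given summit pileup (left, fragments) and of their basal TAC peaks below a given length (right, bp), both on log axes. The red curves run to the left of the grey ones throughout, with medians of 32 and 63 fragments and of 454 and 776 bp.

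The edge of the membership rule was thin. Only 8 members lay at most 10 bp from a peak of another list, with pileups of 16 to 55, and 17 shared sites stayed outside the class through an overlap of at most 10 bp, with pileups of 14 to 72. Most members stood well apart. The nearest peak of any other list was a median of 6366 bp away (quartiles 2526.5 and 16565 bp), with 620 members (3.73%) within 500 bp and 1502 (9.03%) within 1 kb. The same distance was a median of 4507.5 bp for suprabasal-TAC-only, 3982 bp for hair-germ-only and 3917.5 bp for bulge-only sites. Taken list by list, the nearest suprabasal TAC peak was a median of 9778 bp from a member, the nearest hair germ peak 12747 bp and the nearest bulge peak 11809 bp.

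Members lay away from gene ends, as did the single-population sites of the other lists. The midpoint of 582 members (3.50%, 3.23 to 3.79) was within 1 kb of an end of a protein-coding gene, against 20.4% of shared basal TAC sites and 33.3% of the sites found in all 4 lists. The share was 4.66% for suprabasal-TAC-only, 3.70% for hair-germ-only and 3.21% for bulge-only sites. Inside a gene span lay 51.6% of members (50.8 to 52.4), 58.7% of shared basal TAC sites and 57.0% of suprabasal-TAC-only sites, while hair-germ-only and bulge-only sites were at 50.5% and 50.6%. More than 100 kb from any protein-coding gene lay 15.0% of members (14.5 to 15.6), against 8.23% of shared sites and 8.88% of suprabasal-TAC-only sites, with 14.0% for hair-germ-only and 15.8% for bulge-only sites. On both measures the share in members was closer to those of the hair-germ-only and bulge-only sites than to that of suprabasal-TAC-only sites. With 1 pooled list per population, whether populations differ in this was not tested. The genes that hosted members had a median span of 130 kb, against 76.8 kb for shared sites and 97.2 kb for suprabasal-TAC-only sites, with 129 kb for bulge-only and 116 kb for hair-germ-only sites. Along the pileup ranking the share near gene ends was 2.52% in the tallest decile of members and 5.05% in the lowest, while the share inside genes was between 49.7% and 54.1% in every decile.

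**Figure D2:**
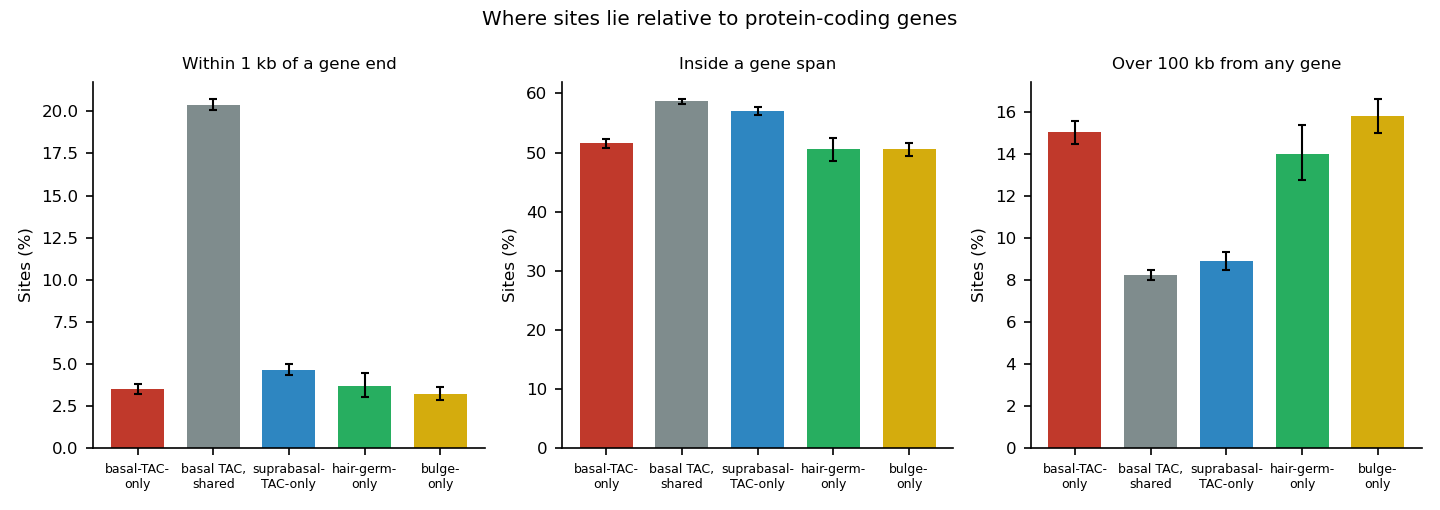
Share of sites (%) within 1 kb of a protein-coding gene end, inside a gene span and over 100 kb from any gene, for basal-TAC-only sites, shared basal TAC sites and the single-population sites of the other lists, with 95% Wilson intervals as bars. Basal-TAC-only sites were at 3.50%, 51.6% and 15.0%, and shared basal TAC sites at 20.4%, 58.7% and 8.23%.

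By chromosome, the share of basal TAC sites that were members ran between 19.3% on chromosome 7 and 25.8% on chromosome 14, with chromosome X at 20.8%. Members also came in runs, that is, neighbouring sites along a chromosome with no site of any other class between them. Runs of 3 or more held 3185 members (19.1%), against 13.1% of suprabasal-TAC-only and 5.79% of bulge-only sites and 27 of the 2701 hair-germ-only sites, classes that also differ in size. There were 16 runs of 8 or more members and 3 such runs of suprabasal-TAC-only sites. The longest, at chr2:138367460-138542400, held 12 members with pileups of 16 to 96, of which 11 had no protein-coding gene within 100 kb. At Glis3, which encodes a Krüppel-like zinc finger factor, 10 members in a row covered 107 kb (chr19:28557706-28664544) with pileups of 17 to 132, and 9 of them passed the depth-scaled absence. Other runs of 8 or 9 lay in Negr1, Rbfox1, Grm7, Grin2b, Adamts12 and Gask1b.

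None of the 25 members of highest pileup lay within 1 kb of a gene end. Their pileups were 186 to 349, 12 lay inside a gene span and 4 had no protein-coding gene within 100 kb. Their lengths were 409 to 1781 bp and their fold enrichments 4.93 to 15.2, and 14 of the 25 were more than 10 kb from any peak of another list. The tallest, at chr19:37358218-37358956, had a pileup of 349 and stood 17.8 kb from Kif11, the spindle motor that separates the poles in mitosis. The nearest peaks of the other lists were 4227 bp (suprabasal TAC), 4217 bp (hair germ) and 4375 bp (bulge) away. The second, at chr3:8163691-8164537 with a pileup of 258, was 345 kb from the nearest gene and over 100 kb from the nearest peak of any other list. The third, at chr10:79701328-79702154 with a pileup of 248, was 2.62 kb from Bsg, which encodes basigin, a partner of lactate transporters.

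Among the nearest genes of these 25 sites were Slit3, Sema3e and Efna5, which encode secreted or surface guidance cues. Slit3, a secreted ligand of Robo receptors, held a member of pileup 219 at chr11:35132481-35133325, 11.4 kb inside the gene end, with the nearest peak of another list 10813 bp away. Sema3e, a class 3 semaphorin, had a member of pileup 206 at chr5:14004221-14005200, 20.6 kb outside the gene. Efna5, an ephrin ligand, had a member of pileup 189 inside the gene, but a bulge peak was only 527 bp away and its fold enrichment, 4.93, was the lowest of the 25. Others stood in Col4a2, a collagen chain of basement membranes (pileup 200), Eya1, a phosphatase and transcription cofactor (199), Spon1, a secreted matrix protein (192), and Grin2b, a subunit of NMDA-type glutamate receptors (191). The member nearest Penk, the enkephalin precursor, had a pileup of 196 and was 87.2 kb from the gene. The order depended on the score: 15 of these 25 were also among the first 25 by −log10 q and 0 by fold enrichment. The highest fold enrichment of any member, 17.9, was at Kcnb2, a potassium channel gene (chr1:15719421-15720071, pileup 155), followed by an intergenic site on chromosome 13 (17.3) and a site near Qpct (17.2).

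At the level of genes, 14136 members had a protein-coding gene within 100 kb, which was 21% of the 67455 basal TAC sites with such a gene. They were spread over 6537 of the 15919 genes with a basal TAC site (41.1%). A single member was nearest to 3462 of these genes, 2458 had 2 to 4, 617 had 5 or more and 90 had 10 or more. The 90 genes were long, with a median span of 438 kb, while genes with a basal TAC site had a median of 23.8 kb. The share of basal TAC sites that were members itself grew with gene span: it was 15.3% at genes under 20 kb, 19.7% at 20 to 100 kb, 24.1% at 100 to 300 kb and 30.2% at 300 kb or more. Over all genes, 3950 held more basal-TAC-only than suprabasal-TAC-only sites and 5205 held more suprabasal-TAC-only sites.

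Slit3 led with 24 members among its 56 basal TAC sites, with pileups of 14 to 219, and had 6 suprabasal-TAC-only, 0 hair-germ-only and 4 bulge-only sites. Fhod3, a formin that assembles actin filaments, and Rbms3, an RNA-binding protein, had 21 each, of 48 and 55 basal TAC sites. Tln2 encodes talin 2, which ties integrins to actin, and 19 of its 31 basal TAC sites were members. Slc24a3, Arl15 and Lpp also had 19, but of 37, 48 and 69 sites. Depth-scaled members numbered 19 at Slit3, 16 at Tln2, 12 each at Rbms3 and Slc24a3, 11 at Fhod3, 10 at Lpp and 9 at Arl15. Phactr1, a regulator of protein phosphatase 1 and actin, had 17 of 25, Samd4, an RNA-binding translational repressor, 14 of 21, and Diaph3, another formin, 14 of 24. Of these, 14, 8 and 9 were depth-scaled at Phactr1, Samd4 and Diaph3. Samd4 and Diaph3 each had 1 suprabasal-TAC-only site. Cux1, a homeobox factor of the hair matrix and inner root sheath, had 18 of 44, yet its tallest member had a pileup of 45 only 7 of the 18 were depth-scaled and 3 reached a −log10 q of 10. It also had 14 suprabasal-TAC-only sites. Macrod2 and Tenm2, at 16 members each with 8 depth-scaled, had 16 and 18 suprabasal-TAC-only sites, so a high count alone did not mark a gene as leaning to the basal cells.

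**Figure D3:**
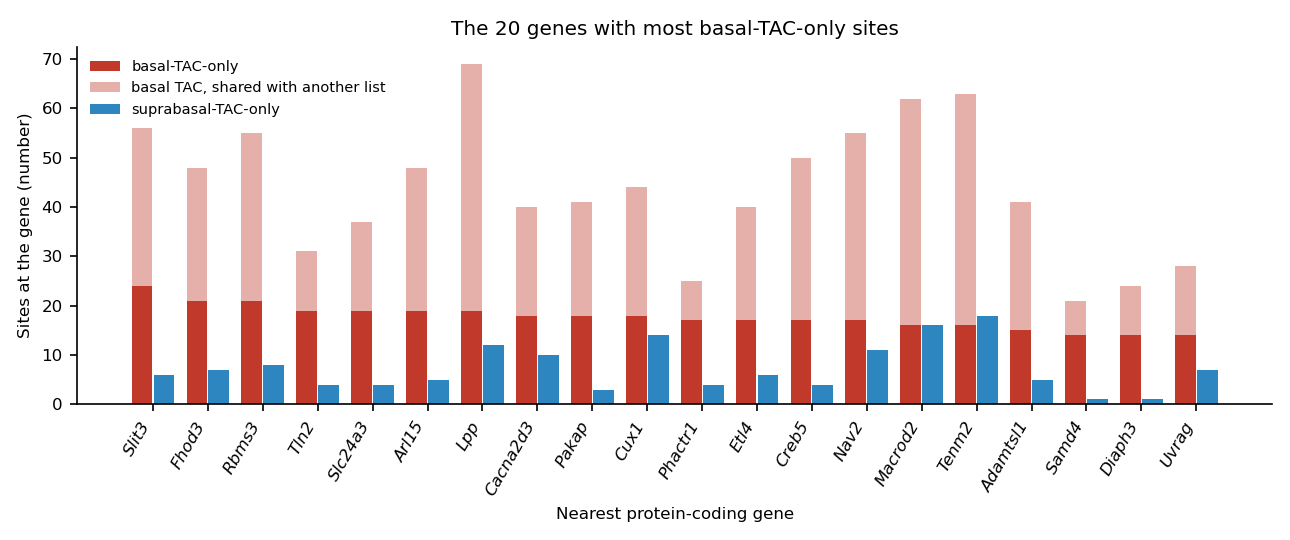
Number of sites at the 20 genes with most basal-TAC-only sites: basal TAC sites split into basal-TAC-only (dark red) and shared with another list (light red), and beside them suprabasal-TAC-only sites (blue). Slit3 stands first with 24 basal-TAC-only sites, and in Macrod2 and Tenm2 the blue bar is as high as or higher than the dark red one.

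Where the share of a gene's sites was ranked in place of the number, among genes with 8 or more basal TAC sites, Adamts12 and Grm7 came first with 8 of 8. Adamts12 is a secreted metalloprotease, and the remaining sites at the gene were 2 bulge-only ones. Grm7, a metabotropic glutamate receptor, had no site of any other list. Adamts16 followed with 11 of 12, Slc24a2, a sodium, calcium and potassium exchanger, with 7 of 8, and Arhgap20, a GTPase-activating protein, with 10 of 12. The depth-scaled members were 5 at Adamts12, 4 at Grm7, 7 at Adamts16, 4 at Slc24a2 and 9 at Arhgap20. Rbfox1, a splicing factor of neurons and muscle, had 12 of 15 but also 12 bulge-only sites. Erbb4, a receptor of neuregulins, had 7 of 9, and all 7 were modest, with pileups of 16 to 36. At 375 genes the only sites of any list were members, against 426 genes for suprabasal-TAC-only, 44 for hair-germ-only and 97 for bulge-only sites. Of the 375, 288 had a single site and 28 had 3 or more, among them Grm7 (8), Serpini1 (6) and Cct6b (5). These names led to 3 families being counted after the values were seen, which supports nothing beyond the counts. Glutamate receptor genes had 49 members among 112 basal TAC sites (43.8%), ADAMTS and ADAMTS-like genes 75 of 203 (36.9%), and the IgLON cell adhesion genes (Negr1, Lsamp, Opcml, Ntm and Iglon5) 29 of 50 (58.0%), of which Negr1 gave 12 of 17 and Lsamp 9 of 12. All genes were at 21%, and at 30.2% for spans of 300 kb or more. Median spans of the 3 families were 278, 95.2 and 969 kb. Suprabasal-TAC-only sites were 41 of 99, 19 of 108 and 5 of 12 of their suprabasal TAC sites, against 16257 of 65015 over all genes.

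**Figure D4:**
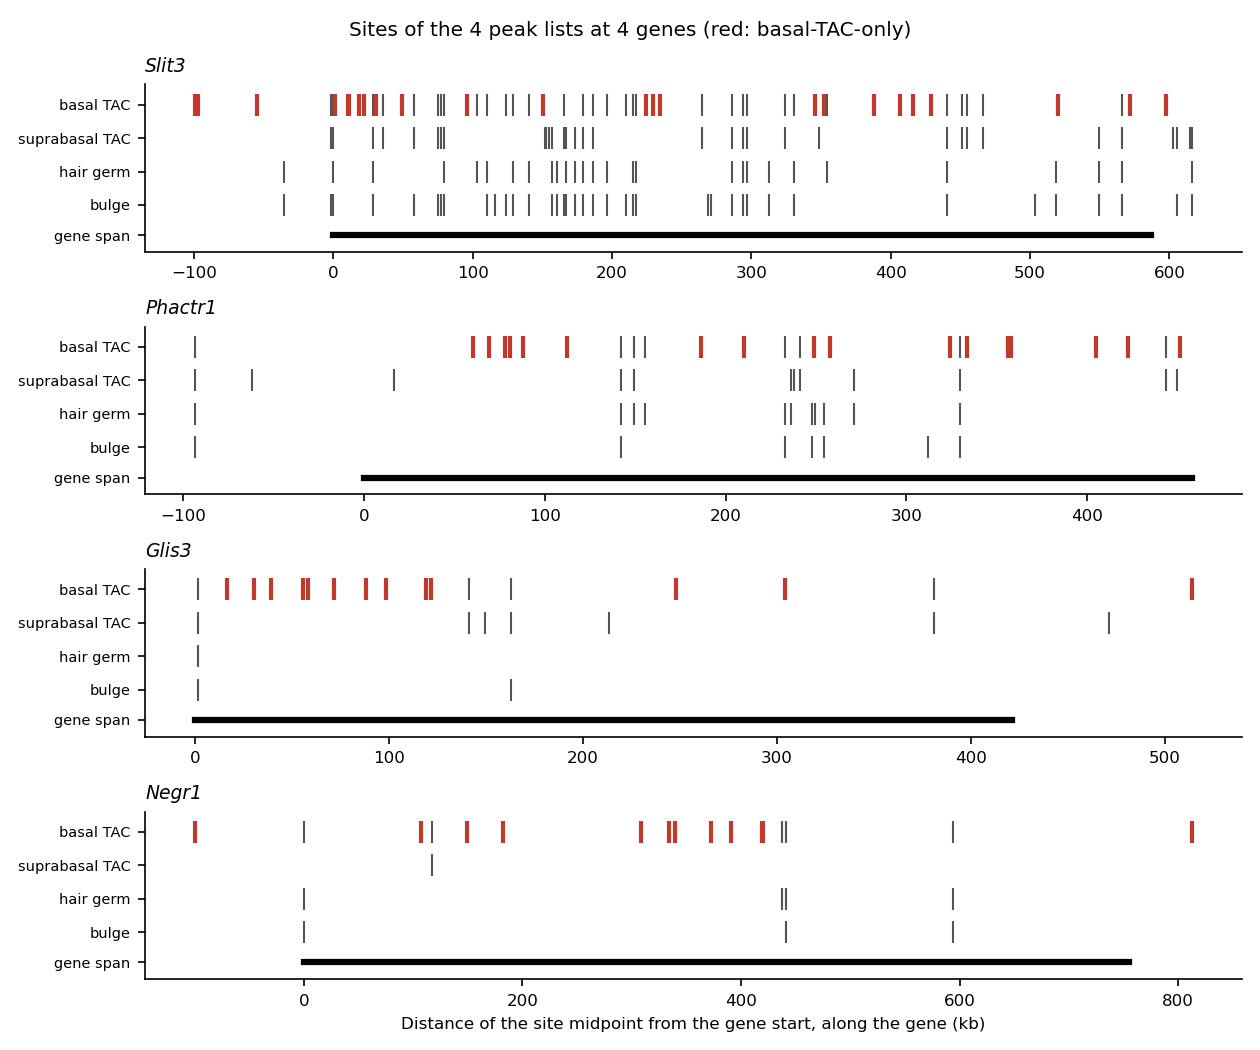
Position of the sites of each list (rows) at Slit3, Phactr1, Glis3 and Negr1, as the distance of the site midpoint from the gene start along the gene (kb), with basal-TAC-only sites in red and the gene span as a black bar. Slit3 members are spread among sites of all lists, whereas 10 of the 13 Glis3 members follow each other in a stretch with no other site, and Negr1 had 12 members and 1 suprabasal TAC site.

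Gene lists that bear on the hair bulb, chosen with earlier results of these data known, were then read against the 21% over all genes. The list for actin, focal adhesion and cell shape had 188 members among 737 basal TAC sites, a share of 25.5% (22.4 to 28.8, exact interval). At least 1 member was found at 34 of its 44 genes, led by Fhod3, Lpp, Tln2 and Diaph3. These genes are long (median span 159 kb), and within spans of 300 kb or more the list had 32.8% against 30.2% for all genes, within 100 to 300 kb 21.8% against 24.1%, and within 20 to 100 kb 9.65% against 19.7%. The list was thus above all genes only at 300 kb or more, and the 21% it was read against is not matched for span. The axon guidance and cell contact list, with the Slit, semaphorin, ephrin and plexin genes, had 146 of 535 (27.3%, 23.6 to 31.3), led by Slit3 (24), Efna5 (12), Sema3e (11) and Ctnnd2 (10). Within the same classes of span it had 32.6%, 26.9% and 17.8%, against 30.2%, 24.1% and 19.7% over all genes. Neither list was raised in basal TACs alone. Suprabasal-TAC-only sites were 137 of 469 suprabasal TAC sites at axon guidance genes and 161 of 613 at actin genes. Over all genes they were 16257 of 65015, a lower share than in either list.

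Signalling lists differed in where they stood. WNT pathway genes had 54 members among 422 basal TAC sites (12.8%, 9.76 to 16.4), and the list was lower than all genes in each class of span it covered: 17.0% against 24.1% at 100 to 300 kb, 10.2% against 19.7% at 20 to 100 kb, and 5.36% against 15.3% under 20 kb. The genes with most of them were Tcf7l1 (9 of 24) and Tcf7l2 (7 of 35), transcription factors of the pathway, and Lgr5 (4 of 16), the receptor whose promoter drives the reporter. Lef1, the matrix WNT effector, had 18 basal TAC sites and 0 members, with 10 suprabasal-TAC-only sites. Notch pathway genes had 26 of 173 (15.0%, 10.1 to 21.2), hedgehog genes 34 of 169 (20.1%, 14.4 to 26.96) and BMP and TGF-beta genes 65 of 308 (21.1%, 16.7 to 26.1). In the hedgehog list Gli2 and Gli3, the pathway's transcription factors, had 8 of 37 and 8 of 33, Ptch1, the receptor, 7 of 20, Gli1 1 of 3 and Shh, the ligand, 0 of 6. Depth-scaled members numbered 7 at Gli2, 3 at Gli3 and 4 at Ptch1. In the BMP list the receptor Bmpr1b had 10 of 18, the inhibitor of differentiation Id4 6 of 12, the ligand Bmp2 5 of 13 (2 of them depth-scaled) and the transducer Smad3 5 of 20. Within 20 kb of the gene lay 10 members at Bmpr1b and 5 at Smad3, but only 1 at Bmp2 and 0 at Id4. FGF and EGF receptor genes were above the 21% in share, at 63 of 257 (24.5%), with an interval that spanned it (19.4 to 30.2). Among them were Lrig1, a membrane inhibitor of EGF receptors (10 of 28), Erbb4 (7 of 9), Egfr (6 of 34) and Fgf5, the signal that ends anagen (6 of 11).

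Fgf5 and Lrig1 show opposite settings. The remaining 5 basal TAC sites at Fgf5 were shared with suprabasal TACs alone, and no hair germ or bulge peak was assigned to the gene. Its tallest member, chr5:98249906-98250815, had a pileup of 137 and was 3147 bp from the nearest suprabasal TAC peak and 63482 bp from the nearest hair germ peak. At Lrig1, known as a stem cell gene, 24 bulge and 18 hair germ sites were present, and the tallest member (chr6:94702893-94703468, pileup 178) had a bulge peak 1739 bp away.

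Lists of differentiated products and widely expressed genes, which are short genes for the most part, had low shares. The hair shaft list had 6 of 65 basal TAC sites (9.23%, 3.46 to 19.0), outer root sheath and basal keratins 8 of 95 (8.42%, 3.71 to 15.9), epidermal differentiation 7 of 71 (9.86%, 4.06 to 19.3) and widely expressed genes 4 of 52 (7.69%, 2.14 to 18.5). Among genes under 20 kb, where all genes were at 15.3%, the epidermal list was at 15.2%, widely expressed genes at 14.3%, the outer root sheath list at 11.6% and hair shaft at 9.09%, each on 21 to 43 sites. At 20 to 100 kb, hair shaft was at 21.4% (3 of 14), against 19.7% over all genes, and the other 3 lists were at 3.23% to 9.09%. The hair matrix list had 48 of 282 (17.0%, 12.8 to 21.9). Without the 18 at Cux1 this came to 12.6%, and Hoxc13 (1 of 14), Msx2 (1 of 13) and Shh (0 of 6) added little. The inner root sheath list had 22 of 92 (23.9%, 15.6 to 33.9), where Cux1 again gave 18. Bulge stem cell genes had 53 of 291 (18.2%, 14.0 to 23.1), cell cycle genes 25 of 146 (17.1%, 11.4 to 24.2) and integrins, laminins and basement membrane genes 61 of 296 (20.6%, 16.1 to 25.7). In that last list Lamc1, a laminin chain, had 8 of 19, Dst, a hemidesmosomal linker, 7 of 34, Col4a2 6 of 17 and Itgb1 5 of 11.

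The genes used for sorting differed among themselves. Itgb1, whose protein was high on the sorted basal cells, had 5 members, all outside the gene span at 5.52 to 84.3 kb, with pileups of 24 to 69, and 1 suprabasal TAC site in all. Itga6 had 1 member among 12 basal TAC sites. Lgr5 had 4 of 16, with pileups of 17 to 54. Cdh3, which encodes P-cadherin, had 0 of 10, Cd34 had 0 of 6 and Ly6a, which encodes SCA1, had no basal TAC site. Krt5, Krt14 and Sox9 had 0 members of 3, 5 and 7 basal TAC sites, and Trp63, the master factor of stratified epithelia, 1 of 30.

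Marker lists of other skin cells held members at shares whose intervals spanned the background: melanocyte 11 of 40 (27.5%), dermal 7 of 35, immune 5 of 17 (29.4%), endothelial 17 of 62 (27.4%), Merkel cell 19 of 62 (30.6%) and sebaceous gland 11 of 49 (22.4%). The melanocyte members lay mainly at Mitf (8 of 21), the Merkel ones at Piezo2 and Syt1 (8 of 16 and 7 of 22), and the endothelial ones at Emcn (6 of 8) and Tek (5 of 11). Depth-scaled members were 2 at Emcn and 5 at Tek. At Emcn and Tek no suprabasal TAC site was assigned, but Emcn had 4 hair germ and 5 bulge sites and Tek had 9 and 8. The part of such cells in the basal TAC sort was not tested.

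**Figure D5:**
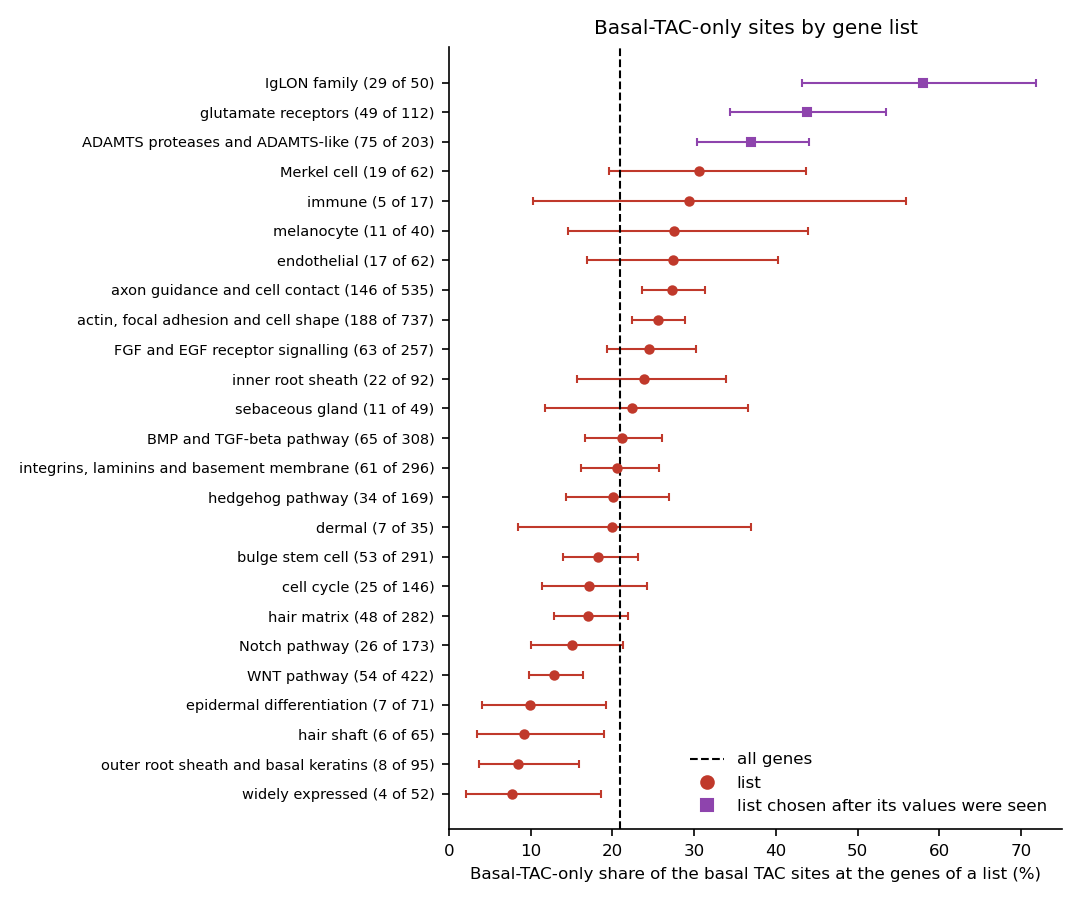
Share of the basal TAC sites at the genes of each list that were basal-TAC-only (%), with exact 95% intervals and member counts in the labels (squares: families chosen after their values were seen), against the share over all genes (dashed line, 21%). Axon guidance (27.3%) and actin (25.5%) lists have intervals wholly above the line, and the WNT (12.8%) list has its interval wholly below it, as do the hair shaft, outer root sheath, epidermal differentiation and widely expressed lists. The line is not matched for gene span, and the lists drawn as circles were also chosen with earlier results of these data known. The intervals treat sites as independent. At axon guidance and actin genes the suprabasal-TAC-only share of suprabasal TAC sites (not drawn) was above that over all genes too.

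Since members avoided gene ends, the lists were also read over sites more than 1 kb from any gene end, where the background was 24.6%. On that base the actin list was at 26.8%, axon guidance at 28.4%, hair matrix at 18.2% and WNT at 13.6%. Of the 22 lists, 16 stayed on the same side of the share over all genes under every alternative tried, and 6 did not. The actin, axon guidance, WNT and hair matrix lists were among the 16. Matching for gene span was not among these alternatives. By class of span, the actin list was above all genes only at 300 kb or more (32.8% against 30.2%). The hair matrix list was above all genes in that class alone (40.9%), through Cux1.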

How the data were processed

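ATAC-seq samples of 4 sorted populations (2 each) were used as the 4 deposited peak lists, mm10, each pooled over both samples. Per the submitters' processing notes, reads were handled with Bowtie2 2.2.9, Picard and MACS2. Peak calling used MACS 2.1.1.20160309 with a q-value of 0.05 and no control, from paired-end data, per the file headers. The sources used here do not state a shift of read ends. Each deposited peak has a pileup signal (fragment coverage at the summit), a length in bp, a fold ratio over the local background, and −log10 of its p-value and of its q-value. The deposited pileup is not scaled for depth, so it was compared only within the basal TAC list, except in the depth-scaled absence described next.

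Peaks sharing at least 1 bp were merged with Python 3.11.15 and pandas 2.3.3. The chance that a peak is called rises with depth, so the depth-scaled absence required the pileup, multiplied by the ratio of fragments, to reach the 5th percentile of each other list. Each site midpoint was assigned to the nearest RefSeq protein-coding span (GRCm38.p6) within 100 kb. Symbols were matched to that table, which held all but 1 of the list genes. Intervals are Wilson or exact binomial (scipy 1.17.1), and no test was run. Merging and assignment were tested on simulated peaks. Named genes were the nearest genes of the 25 tallest members, the 20 genes with most members, the 10 with the highest share among genes with at least 8 basal TAC sites, up to 4 per list, and the sort and matrix genes. The members and gene lists were chosen with earlier results of these data known. The planned motif search around summits was not run without a genome. Promoter windows of 250 bases before and 50 after each start were searched in its place.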

Additional observations from a re-analysis of the deposited data

Results flagged for a closer look

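The Y chromosome was left out of the sites by rule. It held 1 further site with a basal TAC peak and no peak of another list, with a pileup of 52. The mice were of mixed sex, and the share of males in each pool was not stated in the labels.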

How the results depend on the processing

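The 16635 members became 10643 with equal numbers of peaks per list, 10132 with a −log10 q of at least 10 in the basal TAC list alone and 10824 with the depth-scaled absence. The other 5 definitions gave 15621 to 17232. The share near gene ends was 6.16% at 2 kb, 3.08% with the depth-scaled absence and 2.83% at a −log10 q of at least 10, and the share inside genes was 50.3% at that cutoff. With the depth-scaled absence, where all genes were at 16.4%, the hair matrix list was at 11.01%, WNT at 9.56% and actin at 20.1%. Hair matrix without Cux1 was at 12.6%. Of the 25 members of highest pileup, 15 were kept when ranked by −log10 q and 0 by fold enrichment. Of the 20 genes with most members, 19 were kept when sites counted within 20 kb, 11 with the depth-scaled absence and 10 at a −log10 q of at least 10. The cause of these moves was not tested. The median distance to another list was 5711 bp in depth-scaled members and, in an alternative added after seeing the data, 6728 bp at a −log10 q of at least 10. The list shares beyond 1 kb and the promoter motif shares in depth-scaled members were also added after seeing the data. The motif search around summits was not run. No paired analysis was possible because each list pools both samples of a population. Depth limits the class most through the hair germ list, the shallowest.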

Other observations

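In the cell cycle list the genes with most members were Cdk6, Ccnd1, Myc and Mycn. Cdk6, a kinase partner of D cyclins, had 4 members of 20 basal TAC sites with pileups of 16 to 96, and Ccnd1, cyclin D1, had 3 of 8 with pileups of 13 to 64 and no suprabasal-TAC-only site. Myc and Mycn, growth-promoting transcription factors, had 3 of 14 and 3 of 10, beside 8 and 6 suprabasal-TAC-only sites. In the Notch list, Maml2 and Maml3, coactivators of the pathway, had 8 of 36 and 5 of 41, the ligand Jag2 3 of 5 and the receptor Notch1 2 of 9.

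A few members were chosen for mention here after their values were seen. The 10 members of highest fold enrichment (16.05 to 17.9) had pileups of 95 to 155 and lengths of 399 to 814 bp, and their nearest peaks of other lists were 3249 to 69878 bp away. They lay at Kcnb2, Qpct, Ppm1l, Pld1, Rsrc1, Fndc3a, Disp1, Rassf6 and Lrba, with 1 site over 100 kb from any gene. Disp1 encodes the transporter that releases hedgehog ligands, and its site had a pileup of 149. The member over the start of Igfbp5, a binding protein of insulin-like growth factors, had a pileup of 58 but a fold enrichment of 2.59 and lay 13 bp from a peak of another list. The member over the start of Adamts12 was 2662 bp long, with a pileup of 47 and 24428 bp to the nearest peak of another list.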
